A study of Drosophila melanogaster with 2 samples.

Results

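The regions described here are the 376 ChIP-seq peaks of the tagged Drosophila melanogaster protein CG43689 that lie on the X chromosome. They are all peaks of the deposited pooled thresholded list that were placed on the X arm, out of 2088 peaks in that list, and peaks on unplaced X contigs were left out. The chromosome alone chose them, and no signal value took part. They are compared with the 1306 peaks of the same list on the autosome arms 2L (377 peaks), 3L (451) and 3R (478). Peaks of the list elsewhere in the genome were not part of this comparison. Chromatin immunoprecipitation and sequencing (ChIP-seq) recovers the DNA that a protein was bound to, and a peak is a stretch of the genome where that DNA piled up.

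Both samples were whole embryos aged 8 to 24 h from transgenic flies of the strain CG43689-GFP, which carry an insertion that encodes a CG43689-eGFP fusion protein. Chromatin was sonicated to 200 to 800 bp and precipitated through the GFP tag, per the sample descriptions, although a second label field names CG43689 itself as the antibody. The samples are 2 biological replicates of 1 group, with no second condition, and no control library was analysed here. The sources used here do not give the promoter that drives the fusion, the cells that make it or the sex of the embryos, so a peak cannot be tied to a cell type, and the number of X copies per cell in these samples is not known. The replicate 1 list alone had 234 X peaks and the replicate 2 list 247. Depth is unknown, since the lists hold no read counts.

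The X differs from the autosomes in dose: female flies carry a pair of X chromosomes and males a single one. In males the dosage compensation complex, built from MSL proteins and the noncoding roX RNAs, binds along the X and raises its transcription. The gene Sex-lethal (Sxl), itself on the X, sets the female state and blocks this complex. CG43689 is also an X-linked gene, so the locus of the tagged protein lies on the chromosome described here.

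The DNA under the strongest X summits is shown first, because its base composition recurs in the results below. For the 4 strongest promoter summits and the 4 strongest intron summits, the 61 bases centred on the summit are given on the plus strand of dm6, 5′ to 3′, from the RefSeq genome. Capitals mark the longest unbroken run of A and T bases in each window.
Ugalt promoter, chrX:2703854-2703914: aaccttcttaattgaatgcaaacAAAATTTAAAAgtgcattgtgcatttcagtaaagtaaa
lncRNA:CR44619 promoter, chrX:12751377-12751437: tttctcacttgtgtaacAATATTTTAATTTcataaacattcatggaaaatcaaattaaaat
TRAM promoter, chrX:935323-935383: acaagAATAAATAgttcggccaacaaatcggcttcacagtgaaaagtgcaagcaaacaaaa
MFS10 promoter, chrX:13131317-13131377: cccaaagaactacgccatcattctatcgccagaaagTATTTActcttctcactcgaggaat
ph-p intron, chrX:2137331-2137391: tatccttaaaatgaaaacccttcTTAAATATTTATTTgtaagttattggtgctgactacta
CG32772 intron, chrX:4910331-4910391: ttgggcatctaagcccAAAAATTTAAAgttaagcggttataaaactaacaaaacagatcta
Tlk intron, chrX:3742174-3742234: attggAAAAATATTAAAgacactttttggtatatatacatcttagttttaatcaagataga
CG3726 intron, chrX:5918904-5918964: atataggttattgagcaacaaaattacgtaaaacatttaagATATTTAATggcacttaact
A and T made up between 57.4% (MFS10) and 80.3% (lncRNA:CR44619) of these windows. The longest A and T run was 14 bases, under the ph-p intron summit, and the shortest was 6 bases, at MFS10. In 3 windows (Ugalt, ph-p and, ending 1 base before it, lncRNA:CR44619) the run reached the summit or its neighbouring base.

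The X carried about as many peaks for its length as the other arms. It held 16.0 peaks per Mb, against 16.0 on 2L, 16.0 on 3L and 14.9 on 3R. The deposited ranked list holds the weaker candidates as well, and 1.48% of the X candidates were in the thresholded list, against 1.37% on the other 3 arms. Of the peaks on the 4 arms 22.4% lay on the X, against 21.1% of the ranked candidates that were not in the thresholded list (odds ratio 1.08, 95% interval 0.959 to 1.21, p = 0.196 by Fisher's exact test, two-sided). The same exact test passed 0.05 in the replicate 1 list alone (odds ratio 1.19, p = 0.0201) and in the replicate 2 list alone (1.27, p = 0.00146), with the X share higher in each.

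X peaks lay in introns more often than peaks on 2L, 3L and 3R did. A summit was put in the promoter class when it lay within 500 bp of an annotated start site of transcription, and otherwise in the coding, other exon, intron or intergenic class. Of the 376 X summits 187 were intronic, or 49.7% (95% Wilson interval 44.7 to 54.8). On the other arms the intron share was 33.7% on 2L, 30.2% on 3L and 35.6% on 3R, and 33.2% together. The X share lay above each of them (odds ratio 1.99, 95% interval 1.57 to 2.53, adjusted p = 6.56e-08 by Fisher's exact test with Benjamini-Hochberg adjustment over 11 properties). All p-values for peaks and genes describe these lists, since neither peaks nor genes are replicates of the embryos.

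Intergenic peaks were the rarer class on the X. Only 21 X summits, or 5.59%, lay between genes, against 199 of 1306, or 15.2%, on the other arms (odds ratio 0.329, 95% interval 0.196 to 0.527, adjusted p = 8.00e-07 by the same exact test). Promoter summits numbered 149 (39.6%) on the X and 613 (46.9%) elsewhere (odds ratio 0.742, adjusted exact p = 0.0297). The promoter difference kept its direction in each of 10 alternative settings but missed the threshold in 6 of them. With the replicate 1 list alone its odds ratio was 0.760 (adjusted exact p = 0.133), and with the replicate 2 list alone 0.771 (adjusted p = 0.175). The remaining X summits were 3 in coding sequence and 16 in other exon sequence.

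**Figure D1:**
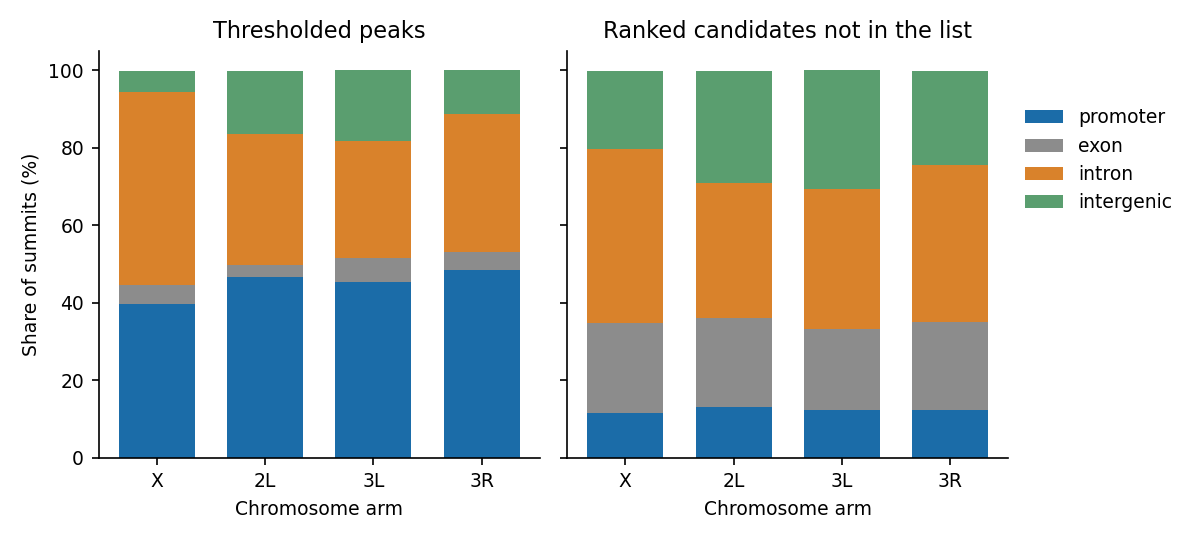
Share of summits (%, vertical axis) in each annotation class, for the arms X, 2L, 3L and 3R (horizontal axis). The left panel shows thresholded peaks and the right panel ranked candidates that did not enter the list, with coding and other exon summits drawn together as exon. The intron block is 49.7% on the X and 33.7%, 30.2% and 35.6% on the other arms, while among candidates it is 44.8% on the X.

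The sequence available on each arm moved partly with this result. Introns outside promoters and exons made up 43.4% of the bases of the X, 36.5% of 2L, 36.9% of 3L and 43.1% of 3R. The part of this base content in the intron share was not tested. Among ranked candidates not in the list, 44.8% lay in introns on the X and 37.6% on the other arms. The odds of an intron summit in the list relative to the candidates were 1.22 (95% interval 0.990 to 1.50) on the X and 0.823 (0.731 to 0.926) on the other arms. Their ratio was 1.48 (95% interval 1.17 to 1.87, adjusted p = 0.00200 by a Wald chi-square test, adjusted over 4 such ratios). For intergenic summits, 20.3% of X candidates and 27.6% of other candidates, the same ratio was 0.494 (0.310 to 0.787, adjusted Wald chi-square p = 0.00405). For promoters it was 0.807 (0.636 to 1.02, adjusted Wald chi-square p = 0.0766). The intron, intergenic and divergent ratios were added after the data were seen.

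Within introns, summits on the X and on 2L, 3L and 3R kept much the same distance from start sites. The median distance to the nearest start site was 2280 bp on the X and 2272 bp elsewhere, against 5642 bp for intronic X candidates that were not in the list. Of the intronic X summits 87, or 46.5%, lay within 2000 bp of a start site, against 47.1% on the other arms (odds ratio 0.977, 95% interval 0.682 to 1.40, p = 0.930 by Fisher's exact test). Another 22 X summits, or 11.8%, lay over 10 kb away. The 3 strongest X peaks over 5 kb from any start site were all intronic. The first lay 5246 bp downstream of the Raf start (signal 242, with 113 in replicate 1 and 132 in replicate 2). Raf encodes the kinase that passes receptor signals from Ras to the MAP kinase pathway. The others lay 22011 bp and 5815 bp downstream of the start of Hr4, which encodes a nuclear receptor, with signals of 208 (101 and 113 in the replicates) and 182 (83.2 and 99.7). The signal is the authors' own value, has no stated unit and is comparable only within a list.

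X genes with a promoter peak were less often part of a divergent gene pair than such genes on the other arms. A protein-coding gene was called divergent when a protein-coding gene on the opposite strand starts within 1000 bp upstream. In such a pair both can be served by a shared stretch of DNA. Any start site of a gene counted, both for this call and for the promoter peak, so the summit need not lie between the pair. At pod1, divergent with C3G, the summit lay 99 bp upstream of a start inside the gene. Of the 155 X genes with a promoter peak 65, or 41.9% (95% interval 34.5 to 49.8), were divergent. On the other arms 525 of 787 were, or 66.7% (odds ratio 0.361, 95% interval 0.249 to 0.520, adjusted p = 6.56e-08 by Fisher's exact test). The single arms gave 66.5% on 2L, 67.3% on 3L and 66.3% on 3R, which differ from each other by less than their intervals.

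The arms hardly differed in how their genes are arranged. Of all protein-coding genes 35.7% on the X and 36.6% on the other arms were divergent, and of the genes that had a ranked candidate but no listed peak, 34.0% and 31.4%. The odds that a gene with a promoter peak was divergent, relative to genes with a candidate only, were 1.40 (95% interval 0.983 to 1.99) on the X and 4.39 (3.73 to 5.16) elsewhere. The ratio of the 2 was 0.319 (95% interval 0.220 to 0.463, adjusted p = 7.10e-09 by a Wald chi-square test). A summit near the starts of both divergent genes can count for both. There were 155 protein-coding genes with a promoter peak for 149 promoter summits on the X (ratio 1.04), and 787 for 613 elsewhere (1.28). These summits include those nearest a noncoding start (11 on the X and 41 elsewhere). A gene with several promoter summits counts once, so the ratio does not measure sharing alone. With 1 gene per summit, the nearest, the divergent share was 28.6% (40 of 140 summits) on the X and 53.4% (308 of 577) on the other arms (odds ratio 0.350, 95% interval 0.228 to 0.530, adjusted exact p = 5.85e-07), a setting added after the data were seen.

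**Figure D2:**
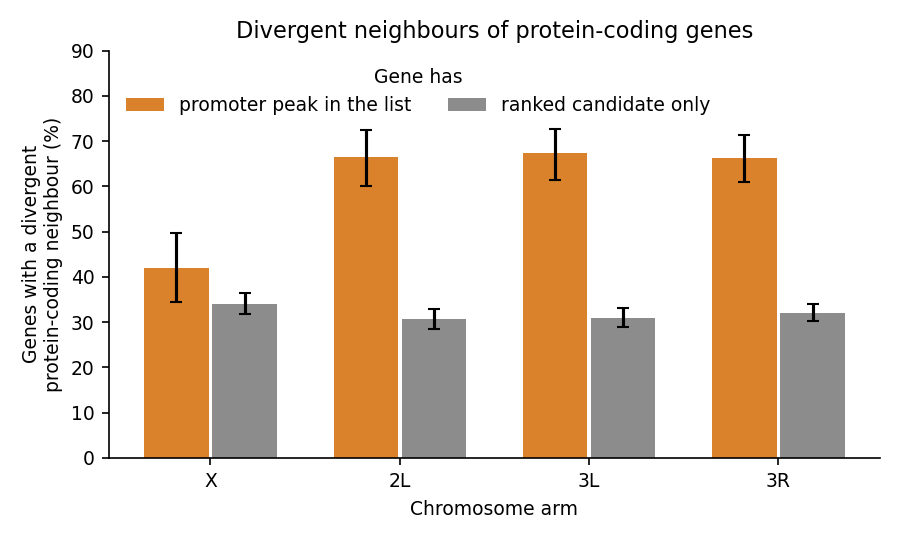
Share of protein-coding genes with a divergent protein-coding neighbour (%, vertical axis) on each arm, with 95% Wilson intervals as error bars. Orange bars are genes with a listed summit within 500 bp of a start site, and grey bars are genes with only a ranked candidate there. The orange bar stands at 41.9% on the X and between 66.3% and 67.3% on the other arms, while the grey bars run from 30.6% to 34.0%.

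Among X genes with a promoter peak, the strongest sat at a divergent pair. The summit at Ugalt, which encodes a UDP-galactose transporter of the Golgi, lay 32 bp upstream of its start and between it and eIF2Bbeta, a subunit of a translation initiation factor exchange complex. Its signal was 1039.7, the highest in the whole pooled list, with 503 in replicate 1 and 540.0 in replicate 2. The next divergent gene was MFS10, opposite CG32638, with a signal of 423 (213 and 210.2). Stt3A, a subunit of the enzyme that attaches sugar chains to new proteins, shared a peak of signal 259.9 with bves (117 and 139.6). The signals of both kinds of gene overlapped, with a median of 106 at the 65 divergent genes and 104 at the 90 others. TRAM, a protein of the channel that moves new proteins into the endoplasmic reticulum, had 484 (233 and 257). Gapdh2, an enzyme of glycolysis, had 338 (154 and 187), and moody, a receptor of the blood-brain barrier, 337 (167 and 169.9).

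A smaller share of X genes than of autosomal genes had a promoter peak. Of the 8229 protein-coding genes on the 4 arms with a ranked candidate within 500 bp of a start site 942, or 11.4%, had a listed summit there. The share was 9.39% (155 of 1651) on the X and 12.0% (787 of 6578) on the other arms (odds ratio 0.762, 95% interval 0.632 to 0.916, adjusted p = 0.00895 by Fisher's exact test). Neither replicate list alone passed the threshold, with 0.826 (adjusted exact p = 0.133) for replicate 1 and 0.904 (adjusted p = 0.517) for replicate 2. The conservative list gave 0.820 (adjusted exact p = 0.0933).

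Some X genes held several summits. A peak summit lay inside 190 X genes, and 21 of them, or 11.1%, held 3 or more summits, against 43 of 597 genes, or 7.20%, on the other arms. The difference was not tested, and X genes were longer (median 2521 bp against 2080.0 bp). The gene with the most summits was kirre, with 11 over 394149 bp, where no gene on the other arms held more than 6. Of the 11 summits in kirre 4 were found in both replicate lists, and their signals ran from 6.27 to 165. kirre encodes an adhesion protein that muscle founder cells use to attract fusing myoblasts. CHES-1-like, a forkhead transcription factor gene of only 27048 bp, held 9 summits, 8 of them intronic, and 4 of the 9 were likewise found in both replicate lists. Its strongest summit had a signal of 339 (177 and 169), followed by 252 (109 and 146) and 199 (90.2 and 107.0), and the weakest had 2.14. Raf and dnc held 6 summits each, and CG1677, Hr4 and NFAT 5 each. dnc encodes the cyclic AMP phosphodiesterase known from learning mutants. Position inside a gene does not say which gene a site acts on, and several of these genes overlap shorter ones.

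Several summits also lay close together at a noncoding locus. Around the start of lncRNA:CR44619 there were 5 summits within 4995 bp, and 4 of them were found in both replicate lists. The strongest lay 460 bp upstream of the annotated start and had a signal of 657 (301 in replicate 1 and 359 in replicate 2). Next came one 503 bp downstream with 379 (184 and 203), and one 2656 bp downstream with 202 (88.6 and 113). A summit 912 bp upstream of the start was weaker, with 83.0 (44.2 and 90.3). Downstream of the strongest summit the signals were lower the farther they lay from it.

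Other peaks among the 15 strongest on the X were mostly intronic. ph-p, a Polycomb group gene that keeps silenced genes silent, held the second strongest, with 681 (307 and 371). It lies in tandem with its near-identical copy ph-d, and how reads were shared between the copies is not given, so that peak's placement is uncertain. CG32772, which has no role given here, had 587 (299 and 277). Tlk, which encodes the Tousled-like kinase of chromatin assembly, had 470.4 (205 and 269.7) in an intron 2307 bp downstream of a start. CG3726 had 421 (202 and 215). NFAT, a transcription factor, had 403 (201 and 206), and norpA, the phospholipase C of vision, 370.4 (191 and 175). In each of the peaks named here the replicate values lay within the replicate-to-replicate spread described next. Of the 50 strongest peaks in the whole pooled list 10 were on the X, which held 376 of all 2088 peaks.

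The replicates ordered the X peaks alike where both called them. A base shared with a peak in each replicate list was found for 178 X peaks (47.3%), in 1 list for 111 and in neither for 87. Their median pooled signals were 140.2, 81.4 and 65.1. The share in both lists was 41.6% on the other arms (odds ratio 1.26, 95% interval 0.996 to 1.60, adjusted exact p = 0.0935). Over the 178 X peaks the signals of the 2 lists had a Spearman correlation of 0.775 and a Pearson correlation of 0.953, given as a description because peaks of a library share its depth. Replicate 2 was the higher in 122 of them (68.5%), and the median ratio of replicate 2 to replicate 1 was 1.08, with 8 in 10 ratios between 0.838 and 1.47. By signal, 75 of the strongest 76 X peaks were in both lists, and 2 of the weakest 75 were.

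**Figure D3:**
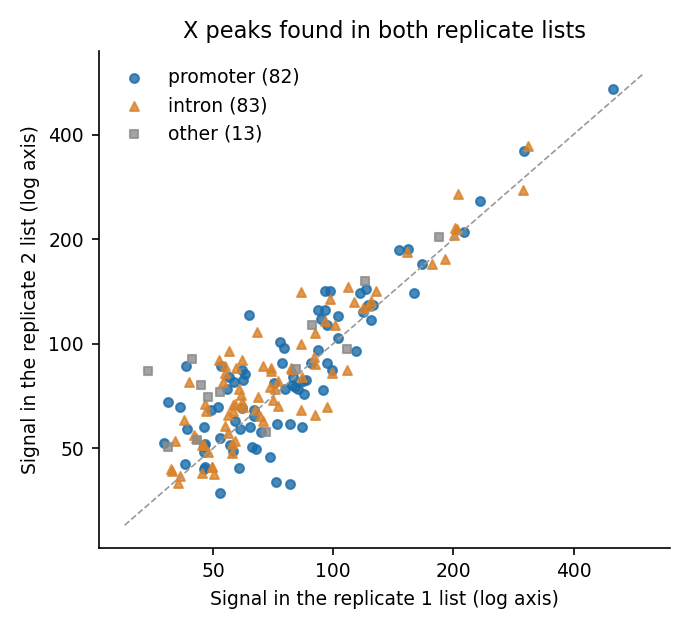
Signal of each X peak found in both replicate lists, replicate 1 on the horizontal and replicate 2 on the vertical axis (both log axes, the authors' signal, no unit). Circles are 82 promoter peaks, triangles 83 intron peaks and squares 13 others, and the dashed line marks equal values. The strongest point is Ugalt, at 503 and 540.0.

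Signal differed little between the X and the other arms. The median X signal was 93.9 (quartiles 71.4 and 139) against 87.1 elsewhere. At or above the median of the 4 arms were 54.3% of X peaks and 48.8% of the others (odds ratio 1.25, adjusted exact p = 0.109). Within the X, promoter peaks had a median of 105, intron peaks 88.7 and intergenic peaks 87.3. Of the 76 strongest X peaks 38 were promoter and 33 intron peaks, and of the 75 weakest 19 and 42. A signal under 20 was given for 7 X peaks, 2.14 at the lowest, and 5 of these 7 overlapped a peak of at least 1 replicate list. Leaving such peaks out changed no call.

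**Figure D4:**
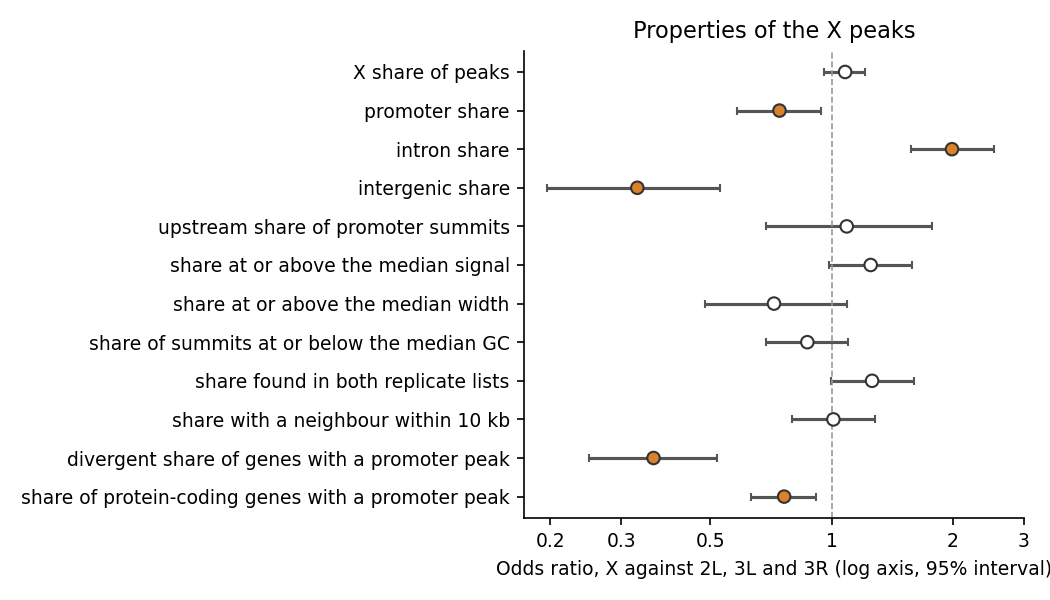
Odds ratio of each property, X against 2L, 3L and 3R (horizontal log axis), with its 95% interval as a bar and a dashed line at 1. Filled points had a p under 0.05 after adjustment, and open points did not. The intron share stands at 1.99, and the divergent share (0.361) and the intergenic share (0.329) stand farthest below 1.

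X summits were poor in G and C, as were those of the other arms. Within 50 bp of the summit GC content was 34.4% ± 9.21 (SD, n = 376 peaks) on the X and 34.7% ± 10.8 (SD, n = 1306) elsewhere, against 42.5% over the whole X arm and 46.1% at X candidates not in the list. The dip was narrow. The X profile fell to 33.8% at the summit and rose to 44.6% at its highest nearby, whereas ranked X candidates were highest, at 46.3%, at the summit. Among stronger peaks the arms differed, the X being less poor in GC. Of peaks at or above the median signal, 41.2% on the X and 57.5% elsewhere lay at or below the median GC of these stronger peaks alone (odds ratio 0.518, adjusted exact p = 2.97e-04). Mean GC of those peaks was 33.0% ± 8.14 (SD, n = 204) on the X and 31.1% ± 8.83 (SD, n = 642) on the other arms. Below the median signal it was 36.0% ± 10.1 (n = 172) and 38.1% ± 11.4 (n = 664). Over all peaks, 49.2% on the X and 52.7% elsewhere lay at or below their median GC of 32.7% (odds ratio 0.870, adjusted exact p = 0.296). Each replicate list was cut at its own median. The odds ratio was 0.642 (adjusted exact p = 0.00987) in the replicate 1 list alone and 0.796 (adjusted exact p = 0.226) in the replicate 2 list alone. Windows of 100 bp to each side gave 0.650 (adjusted exact p = 7.70e-04).

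**Figure D5:**
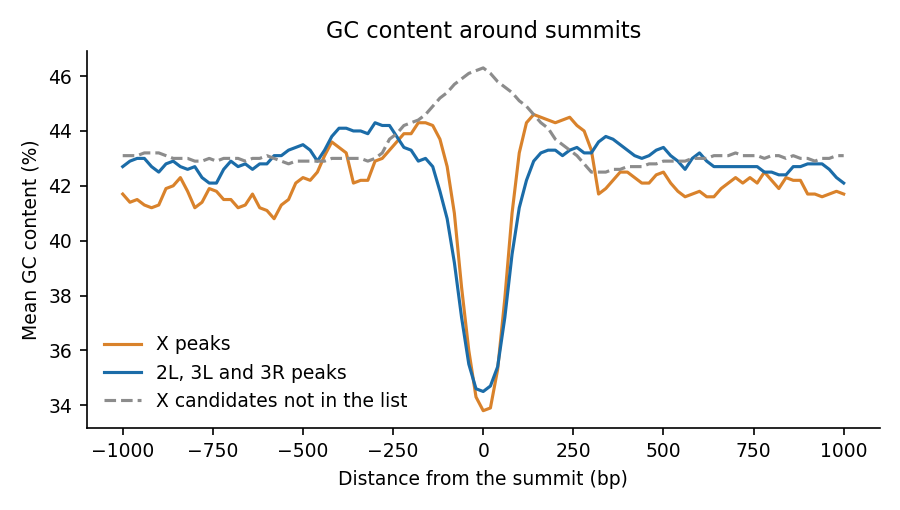
Mean GC content (%, vertical axis) against distance from the summit (bp, horizontal axis) for X peaks, peaks on 2L, 3L and 3R, and X candidates not in the list, each point a mean over 51 bp. Both peak lines fall at the summit, the X line to 33.8% and the other to 34.5%, while the candidate line rises there to 46.3%.

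No searched sequence motif told X summits from those on 2L, 3L and 3R. Each of 16 motifs was searched on both strands within 50 bp of the summit, and 0 of them, or 0%, differed between the X and the other arms after adjustment (Fisher's exact test; lowest p 0.119, lowest adjusted p 0.752). In this setting none had an unadjusted p under 0.05. Before adjustment the lowest p was under 0.05 in 3 alternatives, at 0.0424 in the replicate 1 list alone, 0.0390 at or above the median signal and 0.0116 with windows of 100 bp (exact tests, adjusted 0.499, 0.463 and 0.185). AAATAT occurred at 30.1% of X summits and 34.4% of other summits, against 15.6% in X windows 400 bp away and 12.6% at X candidates. The TATA box letters TATAAA were at 21.8% and 22.3%, against 11.2% in X flanks and 7.62% at X candidates. Dinucleotide repeats were found at few summits. GAGAGAGA occurred at 1.06% of X summits and 0.383% of other summits, against 3.06% of X flanks. CACACACA occurred at 1.33% and 0.689%, against 5.32% of X flanks, and TATATATA at 3.19% and 2.53%, against 1.99% of X flanks. The GAGA factor letters GAGAG, some of which lie within GAGAGAGA, were at 8.78% of X summits, 9.80% of other summits and 16.4% of X flanks. AAAAAAAA was at 8.78% on the X and 6.81% elsewhere. TAATTA was found at 7.98% and 10.1%, AGATAA at 7.71% and 8.42%, CAGCTG at 3.99% and 3.83%, and TCAGT at 15.7% and 16.0%. The promoter element TATCGATA was at 0.798% and 0.995%, its part CGATA at 12.5% and 13.2%, AGNNGGCGC at 1.86% and 1.38%, and CAGGTAG at 0.532% and 0.383%. GGTCACACT matched at 0 of 376 X summits, which allows a share of up to 0.798%, and at 0.536% of the others. Unbroken A and T runs of 10 or more bases were in 34.3% of X windows, 37.1% of other windows, 20.3% of X flanks and 14.9% of X candidates.

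The X peaks were unevenly spread along the arm. The 24 bins of 1 Mb held between 1 and 37 peaks, with a median of 15.5. The densest bin, from 6 to 7 Mb, had 37. Its strongest peak (signal 182) lay inside Fum1, which encodes a citric acid cycle enzyme, 260 bp upstream of an internal start. The same summit lay 262 bp upstream of a start of ND-ASHI, a subunit of respiratory complex I. Next came the bin from 2 to 3 Mb with 33, led by Ugalt. The bins from 3 to 4 and 7 to 8 Mb had 26 each. The former was led by Tlk, the latter by a summit in a CHES-1-like intron whose nearest start site is that of lncRNA:CR43287. The first 14 Mb held 285 peaks, or 20.4 per Mb, and the rest 91, or 9.54 per Mb, a division chosen after the bins were seen. Ranked candidates fell less, from 1129.5 to 968 per Mb, and protein-coding genes from 95.2 to 90.4. Another peak within 10 kb was present for 52.7% of X peaks and 52.4% of the others (odds ratio 1.01, adjusted exact p = 0.953). With only peaks at or above the median signal kept, both as peaks and as neighbours, the shares were 44.1% and 30.4% (odds ratio 1.81, adjusted exact p = 0.00103). Weaker neighbours do not count in that setting, so these shares cannot be set against those over all peaks.

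Among genes of dosage compensation and of the X signal, a listed promoter summit was found at Sxl. Of the 4 X-linked genes on the dosage compensation list 3 had a ranked candidate at a start site, and 1 of them, Sxl, had a listed summit. It lay 461 bp downstream of a Sxl start with a signal of 92.2, and was in the replicate 1 list (49.6) but not in that of replicate 2. A second, intronic summit inside Sxl had a signal of 79.2 and was likewise in the replicate 1 list alone (43.8). roX1 had no summit inside it, and the nearest lay 5932 bp away (133, with 54.7 and 80.3). The nearest summit to roX2 was 43999 bp away, and to mof, the acetyltransferase of the complex, 19343 bp. Of the 6 X-linked genes of the X signal and sex determination list 1 had a promoter summit, again Sxl, where 9.39% of all X protein-coding genes with a candidate had one. Counts this small show neither more nor fewer peaks than that. The nearest summits to sisA, run, upd1, sc and snf lay 16187, 35482, 14042, 97917 and 110190 bp from a start. sisA, run, upd1 and sc are elements whose dose counts the X chromosomes.

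Other lists ranged around the 9.39% of X genes with a promoter peak. Patterning and signalling genes had one at 2 of 31 (6.45%), namely sgg, the kinase of Wnt signalling (206, with 103 and 104), and svr, a carboxypeptidase (59.8, in neither replicate list). Neuronal genes had one at 3 of 20. These were elav, the neuronal RNA-binding protein (243, in both replicate lists), dnc (215, with 103 and 120.2) and dlg1, a scaffold of synapses (85.0, in neither replicate list). Muscle and adhesion genes had one at 3 of 12, namely Moe, sqh and ogre at 135, 106 and 55.8. Moe links actin to the membrane, sqh is the regulatory light chain of nonmuscle myosin, and ogre is a gap junction protein. Chromatin and transcription genes had one at 2 of 20, namely ph-p (332, with 146 and 186) and Top1, the DNA topoisomerase (163, with 85.6 and 78.6). The placement of this ph-p summit is uncertain too, because of the copy ph-d.

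The largest count was in the translation, mitochondria and housekeeping list, with 10 of 30 (33.3%). Cytosolic ribosomal protein genes made up 8 of these, out of 11 with a candidate, and complex I subunits 2 out of 7. No mitochondrial ribosomal protein gene (0 of 7) and no initiation factor gene with a symbol starting eIF (0 of 4) had one. The strongest were RpS28b (185, with 96.2 and 87.8), ND-ASHI (182, with 61.5 and 121), RpL22 (168, with 94.4 and 73.5) and RpS10b (139, with 78.1 and 58.8). At all 8 cytosolic ribosomal protein genes the summit lay close to the start, from 43 bp upstream (RpL22) to 12 bp downstream (RpL36). RpS14b (57.2) has a near-identical neighbouring copy, so its placement is uncertain. These lists are described by counts alone and were not tested.

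CG43689 itself showed no listed peak. The gene (FBgn0263772) spans chrX:4075743-4092237 on the plus strand, 16495 bp in Ensembl 115. No summit of the pooled thresholded list lay inside it or within 10 kb, and the nearest was 207114 bp away. The ranked list placed 24 candidates inside the gene, with a highest signal of 50.8.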

How the data were processed

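The authors deposited peak lists on dm6 and no reads. Per the deposited file descriptions, thresholding used the irreproducible discovery rate, with a main and a conservative list from both replicates and a list from each replicate, each beside a ranked list of candidates. No aligner or peak caller is given in the sources used here. Each deposited peak has a signal value, comparable within a list only, and a score that the authors set at up to 1000 (830 at the lowest in the main list). Unnamed further columns of the ranked lists went unused.

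X peaks of the main list were compared with those on 2L, 3L and 3R, using Ensembl 115 annotation and the RefSeq genome, whose arm lengths match dm6. Positions are 1-based. Fisher's exact test compared shares (scipy 1.17.1, Python 3.11.15), adjusted by Benjamini-Hochberg over 11 properties or 16 motifs at 0.05. Odds ratios are conditional estimates, and Wilson intervals cover counting error only. Where listed peaks were compared with candidates, the candidates were the ranked peaks outside the main list. The percentages of candidates in the list, and of genes with a candidate that had a listed summit, are over all ranked peaks, listed ones included. The functions were tested on simulated data. Named were the 15 strongest X peaks, the 3 strongest over 5 kb from a start site, the densest 1 Mb bins, members of 7 gene lists with a promoter summit (up to 4 by signal), and all X-linked dosage compensation and X signal genes. Of the 15 strongest peaks 1 is not reported here. roX1 and roX2 were matched through RefSeq synonyms. Stt3A, bves, kirre, CHES-1-like, dnc and other genes outside that rule were named after their values were seen. The members, lists and tests were chosen with earlier results of these data known. Alternatives were each replicate list alone, the conservative list, peaks at or above the median signal, peaks in both replicate lists, leaving out each compared arm, a start-site window of 1000 bp, an overlap of 50%, a neighbour distance of 5 kb, a GC or motif window of 100 bp, and, added after the data were seen, a signal of 20 or more and 1 gene per summit.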

Additional observations from a re-analysis of the deposited data

Results flagged for a closer look

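Peaks on unplaced X contigs, which no comparison above used, were flagged because they carry signal outside the main measurement. The pooled thresholded list had 26 peaks on 25 such contigs, out of 775 ranked candidates there (3.35%, 95% Wilson interval 2.30 to 4.87), against 1.48% on the X arm. Their median signal was 85.0, from 28.3 to 303. Of the 26, 7 were in the replicate 1 list, 17 in the replicate 2 list and 4 in both. The Y chromosome had 0 peaks in the thresholded list among 483 ranked candidates.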

How the results depend on the processing

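No paired analysis was possible because both samples belong to 1 group. Of 162 alternative values 132 kept their direction and their side of the threshold. The intron odds ratio stayed between 1.72 and 2.13, the intergenic between 0.225 and 0.377 and the divergent between 0.297 and 0.405, each past the threshold in every alternative run, as were the ratios to candidates for these 3 properties (1.30 to 1.58, 0.337 to 0.526 and 0.271 to 0.359). No motif passed in any of 6 alternatives. Where results changed, the cause was not tested. The promoter odds ratio missed the threshold at 0.760 to 0.771 without a replicate, 0.854 in the conservative list, 0.727 at or above the median signal, 0.770 without 3R and 0.805 with a 1000 bp window. The share of genes with a promoter peak missed it at 0.826 to 0.904 without a replicate, 0.820 in the conservative list and 0.793 at or above the median signal. The X share of peaks passed at 1.19 to 1.27 without a replicate, 1.19 at or above the median signal and 1.23 for peaks in both replicate lists. The GC odds ratio passed at 0.642 without replicate 2 (0.642 to 0.796 without a replicate), 0.518 at or above the median signal, 0.559 for peaks in both lists and 0.650 with 100 bp windows. The neighbour odds ratio passed at 1.81 at or above the median signal. The odds ratio for high signal passed at 1.35 without 2L, and that for peaks in both lists at 1.38 without 2L and 1.31 with 50% overlap. Directions turned, none past the threshold, for the upstream share (0.788 to 0.924 without a replicate, 0.801 at or above the median signal, 0.956 for peaks in both lists and without 2L), the signal (0.967 for peaks in both lists), the width (1.02 without replicate 1, with 0.975 and its direction kept without replicate 2) and the neighbour share (0.886 without 3R). With depth unknown, how much these limits owe to sequencing cannot be told.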
